A study of Danio rerio with 15 samples.

Results

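The 9 genes described here belong to selenium transport and selenocysteine synthesis, or to families named for them: the carriers selenop and selenop2, the receptor lrp8, the selenium-binding selenbp1, the selenophosphate synthetase family genes sephs1 and sephs3, and sepsecs, trnau1apa and trnau1apb, which act on the selenocysteine tRNA. They were chosen by name and role, with earlier results of these data known. Each was matched to the array by its current or older symbol through its Entrez gene number. All 9 were on the array, of 8796 genes with a name there, and together they had 11 probe sets: sephs3 and trnau1apb had 2 each and the other genes 1.

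RNA of the whole brain was measured in 15 adult zebrafish, 1 fish on each array. All fish were 1 year old and of the strain that the labels call Transgenic Mosaic 1, which do not say what the name stands for. For 14 days they ate food with a control selenium level of 1.4 ppm or food brought to 5.6 ppm with sodium selenite. The control food went to 3 females and 4 males, and the supplemented food to 4 fish of each sex. Replicate numbers follow accession order and only name the fish. Neuron markers were bright in every fish, as a whole brain should give, with a mean log2 level of 8 such genes from 12.2 to 12.3. Levels are log2 expression values, so a difference of 1 is 2-fold. Probe sets bind with different strength, so a level compares fish for 1 probe set and does not rank genes by their RNA.

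Selenoprotein P is the plasma carrier of selenium. In mammals the liver secretes it, and neurons and the cells of the blood-brain barrier take it up through Lrp8, also known as ApoER2, so that the brain keeps its selenium when the body runs short. Inside cells, selenium is freed and activated to selenophosphate, and SEPSECS uses that selenophosphate to convert a serine-derived residue on the selenocysteine tRNA into selenocysteine, which ribosomes then insert at UGA codons.

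No diet difference was detected in these genes. In a limma fit over all 15502 probe sets, 0 of the 11 member probe sets passed an adjusted p under 0.05 in females or in males, where the share called among all probe sets was 0% as well. At an unadjusted p under 0.05, 0 of 11 passed in either sex, against 8.27% of all probe sets in females and 5.23% in males. Of the 9 genes, read by the brighter probe set where there were 2, 6 stood higher and 3 lower in the females given selenium. In males 5 were higher and 4 lower. The median log2 difference of the 9 was 0.02 in females and 0.0004 in males, beside 0.01 and -0.01 over all probe sets. The differences of the 9 genes ran from -0.20 to 0.12 in females and from -0.18 to 0.18 in males. Averaged over the sexes, 5 were higher and 4 lower, and 0 of 11 probe sets passed, with 0% of all probe sets called. At an unadjusted p under 0.05 that average gave 0 of 11, against 5.19% of all.

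**Figure D1:**
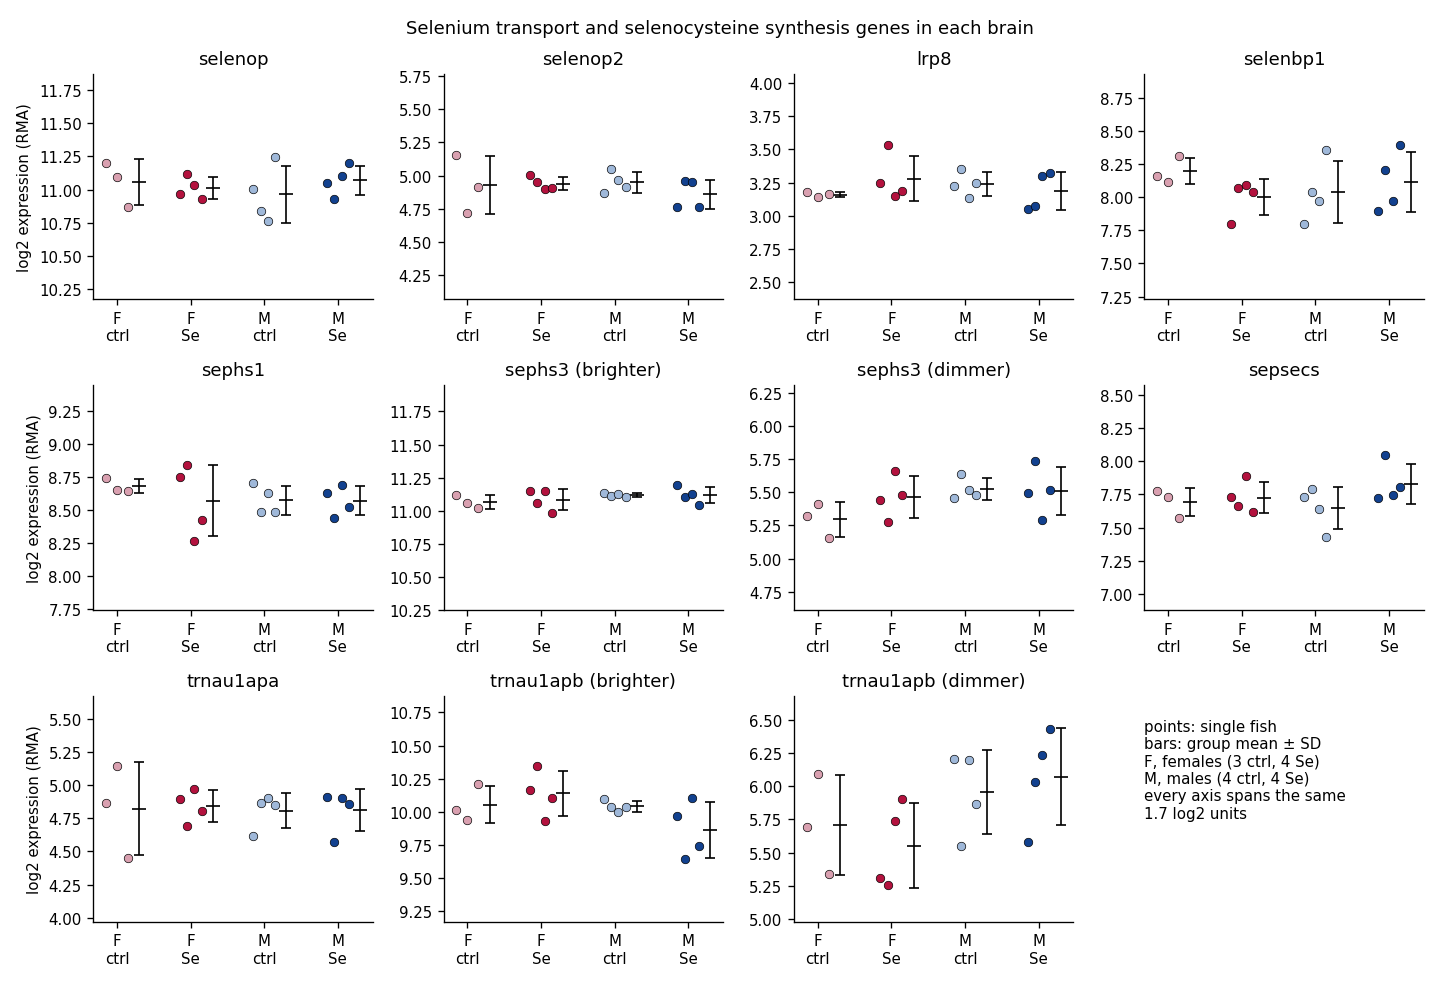
Log2 expression of the 11 member probe sets in each fish (points, 1 per fish) with the group mean ± SD beside them, for females (F) and males (M) on the control (ctrl) and selenium (Se) diets. Every panel spans the same 1.7 log2 units. The groups overlap in nearly every panel, sephs3 by its brighter probe set has the least scatter, and selenbp1 is the panel where the females on selenium all lie below the female controls.

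The array read the genes at very different places on its scale, and this sets what it could show. The brighter probe set of sephs3 (mean 11.10) and that of selenop (11.02) were brighter than 92.5% and 92.0% of all probe sets, and the brighter one of trnau1apb (10.02) was brighter than 83.2%. Those of sephs1 (8.59), selenbp1 (8.08) and sepsecs (7.73) lay between the 55.1st and the 65.9th percentile. By contrast, selenop2 (4.92) and trnau1apa (4.82) lay at the 22.1st and the 20.7th percentile, and lrp8 (3.22) was dimmer than all but 0.968% of probe sets. The deposited values carry no detection call, so whether lrp8, selenop2 and trnau1apa were read above background is not known. The dimmer probe sets of sephs3 (5.46) and trnau1apb (5.83) lay at the 29.1st and the 33.3rd percentile, and the same limit holds for them.

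The carrier selenop (Entrez gene 352931, older symbol sepp1a) did not differ with diet beyond the spread between fish. Its level was 11.20, 11.10 and 10.87 in the 3 control females and 10.97, 11.12, 11.04 and 10.93 in the 4 females on selenium. In control males it was 11.00, 10.84, 10.76 and 11.25, and in males on selenium 11.05, 10.93, 11.10 and 11.20. In both sexes every fish on selenium lay inside the range of the controls. The log2 difference was -0.04 ± 0.12 (SE, n = 4 and 3) in females and 0.11 ± 0.11 (SE, n = 4 and 4) in males. As folds, the 95% confidence interval ran from 0.818 to 1.15 in females and from 0.918 to 1.26 in males.

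The other carrier gene, selenop2 (Entrez gene 791479, older symbol sepp1b), encodes a form of selenoprotein P that lacks the selenocysteine-rich tail. Its level was 4.93 ± 0.22 (SD, n = 3) in control females and 4.94 ± 0.05 (n = 4) in females on selenium, and 4.95 ± 0.08 (n = 4) in control males against 4.86 ± 0.11 (n = 4) in males on selenium. The log2 difference was 0.01 ± 0.10 (SE) in females and -0.09 ± 0.09 in males. All groups overlapped, and the widest scatter was that of the control females, from 4.71 to 5.15.

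The receptor gene lrp8 (Entrez gene 557734) encodes a member of the LDL receptor family that also receives Reelin, a signal for neuron placement and synapses. Its dim probe set read 3.16 ± 0.02 (SD, n = 3) in control females, 3.28 ± 0.17 (n = 4) in females on selenium, 3.24 ± 0.09 in control males and 3.19 ± 0.15 in males on selenium (n = 4 each). The female difference of 0.12 ± 0.10 (SE) rested on replicate 2 of the females on selenium, at 3.53, and was 0.04 without that fish. In males the difference was -0.05 ± 0.09, and it ran from -0.097 to -0.0070 with 1 fish left out at a time.

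The gene selenbp1 (Entrez gene 393542) encodes a protein that holds selenium without selenocysteine and, in mammals, oxidises methanethiol. It was the one gene of the 9 whose female groups did not overlap. The 3 control females stood at 8.16, 8.12 and 8.31, and the 4 females on selenium at 7.80, 8.07, 8.10 and 8.04. Every female on selenium was lower, but the highest of them was 8.10 and the lowest control 8.12, which leaves almost no gap. Over all probe sets 6.95% did not overlap between the female groups, so 1 of 9 is near that background. The log2 difference was -0.20 ± 0.14 (SE), with a limma adjusted p of 0.731 and an exact permutation p of 0.0571 (two-sided, where 0.0286 is the smallest that 35 assignments allow). In males the gene ran from 7.80 to 8.35 in controls and from 7.89 to 8.39 on selenium, with a difference of 0.08 ± 0.13. No gene of the 9 parted the male groups, where 4.1% of all probe sets did. The male difference turned to -0.11 without replicates 2 and 4 of the males on selenium, the pair with the most retina signal.

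**Figure D2:**
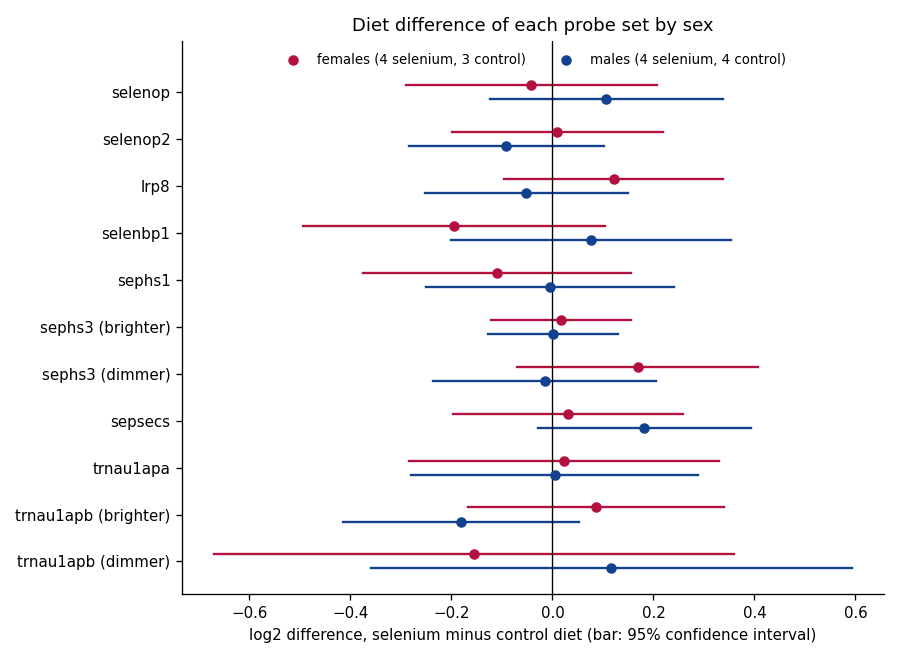
Log2 difference between the selenium and the control diet for each of the 11 member probe sets in females (4 and 3 fish) and males (4 and 4 fish), with the 95% confidence interval of the limma fit as a bar. Every interval includes 0. The brighter probe set of sephs3 has the narrowest bars and the dimmer one of trnau1apb the widest.

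The synthetase gene sephs3 (Entrez gene 352933), with the older symbols sephs2 and sps2, had the narrowest interval of the 9 genes. Its mammalian counterpart SEPHS2 makes selenophosphate and is itself a selenoprotein. The brighter probe set read 11.12, 11.06 and 11.02 in control females and 11.15, 11.06, 11.15 and 10.98 in females on selenium. Control males stood at 11.13, 11.11, 11.12 and 11.10, and males on selenium at 11.20, 11.11, 11.13 and 11.05. All 15 fish fell within 0.215 log2 units, a narrower range than in all but 1.21% of probe sets. The log2 difference was 0.02 ± 0.06 (SE) in females and 0.0004 ± 0.06 in males, and as folds the 95% interval ran from 0.919 to 1.11 in females and from 0.915 to 1.09 in males. The residual SD within groups was 0.058, beside a median of 0.109 for probe sets of like brightness and 0.169 for all. The dimmer probe set (mean 5.46) stood at 0.17 ± 0.11 in females and -0.02 ± 0.10 in males.

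The other family gene, sephs1 (Entrez gene 324947), encodes a relative that, in mammals, does not make selenophosphate and is tied to redox balance. It stood at 8.74, 8.65 and 8.65 in control females and at 8.75, 8.84, 8.27 and 8.42 in females on selenium. The treated females thus split: replicate 2 lay above all controls and replicates 3 and 4 below them. Replicate 1, at 8.75, was about level with the highest control, at 8.74. The log2 difference was -0.11 ± 0.12 (SE) in females. It was -0.0097 without replicate 3 of the females on selenium, at 8.27, and -0.20 without replicate 2, at 8.84. In males the mean was 8.57 ± 0.11 (SD, n = 4) on selenium and differed from the controls by -0.005 ± 0.11.

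**Figure D3:**
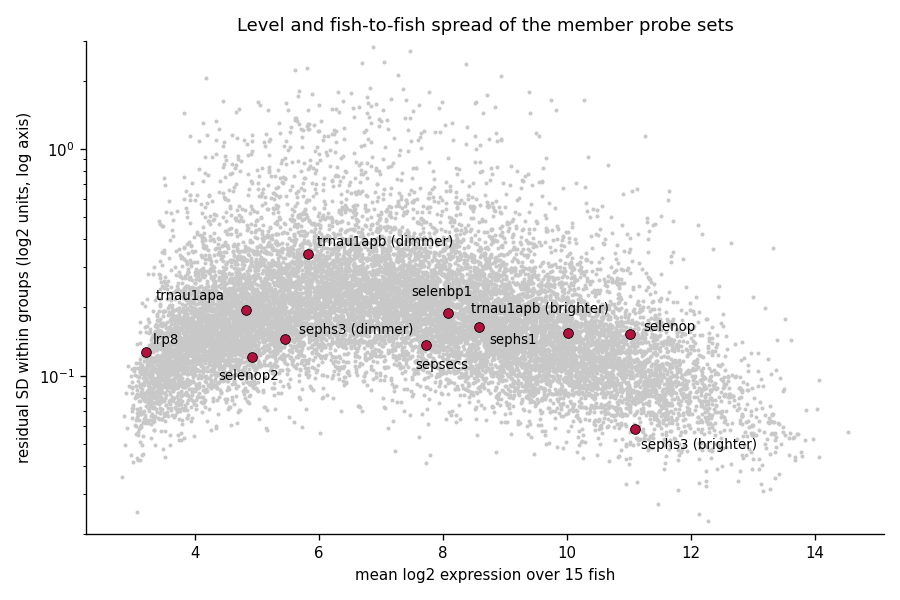
Mean log2 expression over the 15 fish (x axis) against the residual SD within groups (y axis, log scale) of all 15502 probe sets (grey), with the 11 member probe sets in red. The brighter probe set of sephs3 lies low in the cloud at its level, at 0.058. The dimmer one of trnau1apb is the highest member, at 0.343, above 90.1% of all probe sets.

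The enzyme gene of the last step, sepsecs (Entrez gene 393123), had the largest male difference upward. Control females stood at 7.77, 7.73 and 7.58, and females on selenium at 7.73, 7.67, 7.89 and 7.62. Control males stood at 7.73, 7.79, 7.64 and 7.43, and males on selenium at 7.72, 8.05, 7.74 and 7.81. On selenium 2 males exceeded every control male. The log2 difference was 0.03 ± 0.11 (SE) in females and 0.18 ± 0.10 in males, where the limma adjusted p was 0.937 and the exact permutation p 0.143. Averaged over the sexes it was 0.11 ± 0.07 (adjusted p = 0.967). The highest male, replicate 2 at 8.05, also had the highest mean of 12 retina and lens genes, 8.42, and replicate 4 came next with 7.64, while the other 13 fish lay between 4.62 and 6.42. The male difference was 0.11 without replicate 2, 0.09 without replicates 2 and 4, and 0.11 without replicate 4 of the control males. With the retina and muscle means as covariates it was 0.04. Because both means stood higher in the males on selenium, this fit cannot tell them apart from diet. Radial glia markers also parted the male groups: their mean level lay between 11.17 and 11.24 on selenium and between 11.27 and 11.36 in controls, with 8 of 9 genes lower and 0 called. The part of retina, muscle or radial glia signal in the male values of the 9 genes was not tested.

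The remaining genes encode SECp43, a protein bound to the selenocysteine tRNA, in 2 copies. The dim probe set of trnau1apa (Entrez gene 553636) had group means from 4.81 to 4.84, and its difference was 0.02 ± 0.14 (SE) in females and 0.005 ± 0.13 in males. Its control females alone ran from 4.45 to 5.14, and in males on selenium 1 fish stood at 4.57 with the other 3 between 4.86 and 4.91.

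The copy trnau1apb (Entrez gene 791478) had 2 probe sets whose diet differences had opposite signs in each sex, none past the test. By the brighter one, control females stood at 10.02, 9.94 and 10.21 and females on selenium at 10.17, 10.35, 9.93 and 10.10. Control males stood at 10.10, 10.04, 10.00 and 10.04, and males on selenium at 9.97, 9.64, 10.10 and 9.74. On selenium 3 of 4 males stood below every control male, and the other male was level with the highest of them. The difference was 0.09 ± 0.12 (SE) in females and -0.18 ± 0.11 in males, where it was -0.0093 without replicates 2 and 4 of the males on selenium. In females it was 0.016 without replicate 2 on selenium and 0.16 without control replicate 3. By the dimmer one (mean 5.83) it was -0.16 ± 0.24 in females and 0.12 ± 0.22 in males. The fish-to-fish spread of the dimmer probe set was wide, with a residual SD of 0.343 and a 95% interval in females from 0.629 to 1.28 as a fold.

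**Figure D4:**
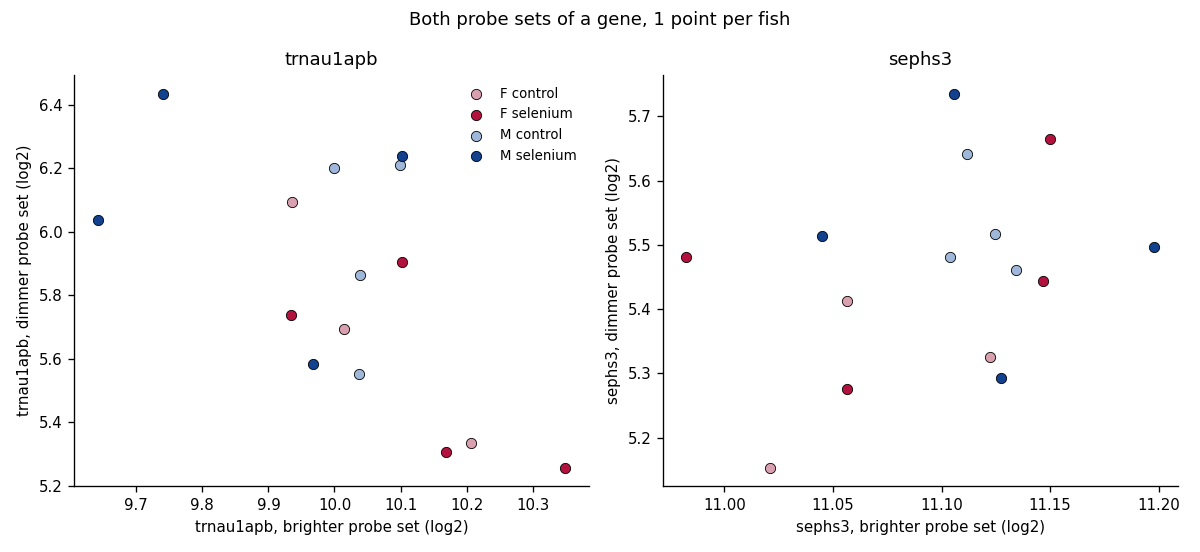
The brighter probe set (x axis) against the dimmer probe set (y axis) of trnau1apb (left) and sephs3 (right), in log2 expression, 1 point per fish and coloured by group. For trnau1apb the fish high by one probe set tend to be low by the other, with Pearson r = -0.60 over 15 fish, and for sephs3 r is 0.32.

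Over the 15 fish the pair of trnau1apb probe sets had a Pearson r of -0.60 (permutation p = 0.0154, adjusted 0.0308 over the 2 such pairs) and a Spearman rho of -0.49 (permutation p = 0.0662). Without the 2 fish farthest from the median, r was -0.55 (permutation p = 0.0499, adjusted 0.0998). With the group means subtracted it was -0.45 (permutation p = 0.154), so the relation did not pass the test within groups. For the sephs3 pair r was 0.32 and rho 0.25 (permutation p = 0.238 and 0.36). These pairs were looked at after their values were seen. Whether the dimmer probe set of either gene was read above background is not known, which limits what the pairs can show.

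A measure of RNA quality was read beside the brighter probe set of trnau1apb. It is the signal of the 3′ gapdh control probe set minus that of the 5′ one, in log2 units, which grows as RNA breaks down. It was 1.74 in replicate 2 of the females on selenium, where trnau1apb was highest. In replicate 2 of the males on selenium, where trnau1apb was lowest, it was 0.659, the least of all fish. The most of all fish was 1.84, in replicate 1 of the females on selenium, where trnau1apb stood at 10.17. This gapdh difference was 1.59 ± 0.24 (SD, n = 4) in females on selenium, 1.19 ± 0.37 (n = 3) in control females, 1.04 ± 0.16 in control males and 0.934 ± 0.21 in males on selenium (n = 4 each). With it as a covariate the diet difference of the brighter probe set was -0.08 in females, in place of 0.09, and -0.14 in males. The dimmer probe set turned in females too, from -0.16 to 0.22. Because the gapdh difference varied with sex and diet, this fit cannot tell it apart from them. The part of RNA quality in these values was not tested.

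The diet effect was then compared between the sexes, as the difference of the female and the male effect. Among the members the smallest p belonged to trnau1apb by its brighter probe set, with 0.27 ± 0.16 (SE), and to selenbp1, with -0.27 ± 0.19. The limma adjusted p was 0.655 and 0.691, and 0 of 11 member probe sets passed, with 0% of all probe sets called. At an unadjusted p under 0.05, 0 of 11 passed, against 8.37% of all. For trnau1apb the difference was 0.06 with the gapdh covariate, 0.10 without replicates 2 and 4 of the males on selenium, and -0.003 by the mean of its probe sets.

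Averaged over the diets, the sexes were not told apart by these genes. In this comparison limma called 0.142% of all probe sets, which is 22 of 15502 (0.0323% higher and 0.11% lower in females), and 0 of the 11 member probe sets. The fish of one sex overlapped those of the other in all 11, where 0.31% of all probe sets did not overlap. At an unadjusted p under 0.05 1 of 11 passed, against 14.8% of all. It was the dimmer probe set of trnau1apb, at -0.39 ± 0.16 in females minus males (SE, 7 females and 8 males, limma adjusted p = 0.29), while the brighter one stood at 0.14 ± 0.08. The dimmer probe set of sephs3 stood at -0.14 ± 0.08. With the gapdh difference as a covariate, the sex difference of the brighter probe set of trnau1apb turned sign. The gapdh difference itself stood higher in females, so this fit cannot tell it apart from sex. The part of RNA quality in these sex differences was not tested.

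The 4 groups of each probe set were also ordered by mean level, as a description. Sorting puts the closest means side by side, so small steps between neighbours follow largely from the order itself. Of 33 steps between neighbouring group means, over 11 probe sets, 1 was larger than the larger SD of its groups: females on selenium above control females in the dimmer probe set of sephs3, by 0.17. In 0 of the 33 did the fish of neighbouring groups not overlap. The highest and the lowest group lay apart by more than the larger SD in 5 of the 11 probe sets, and their fish did not overlap in 2. These were selenbp1, with control females above females on selenium, and the dimmer probe set of sephs3. In the latter, control males (5.46 to 5.64) stood above control females (5.15 to 5.41). The highest and the lowest group were picked from these same means, and the share of all probe sets that part in this way was not computed. Whether 5 and 2 of 11 are many or few is therefore not known. For selenop the order was males on selenium (11.07 ± 0.11), control females (11.06 ± 0.17), females on selenium (11.01 ± 0.08) and control males (10.96 ± 0.21). For sepsecs it was males on selenium (7.83 ± 0.15), females on selenium (7.72 ± 0.12), control females (7.69 ± 0.10) and control males (7.65 ± 0.16, SD, n = 4 and, for control females, 3). In bulk brain RNA such levels join the number of cells of a type with the RNA in each, and these cannot be told apart.

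No pair of partner genes passed a test of moving together across fish. Over the 15 fish, r was 0.26 between selenop and its receptor gene lrp8 and -0.19 between both selenop genes. It was 0.08 between sephs1 and sephs3, -0.26 between sephs1 and sepsecs, and -0.17 between trnau1apa and trnau1apb. Spearman's rho was 0.30, -0.28, 0.16, -0.16 and -0.37 in the same order. The permutation p of r ran from 0.352 to 0.789 and that of rho from 0.173 to 0.558, and adjusted over the 5 pairs none was under 0.516. Without the 2 fish farthest from the median of the first gene, r was 0.19, -0.17, 0.46, -0.05 and -0.50. With the group means subtracted it was 0.38, -0.12, 0.18, -0.27 and -0.26, with a permutation p from 0.110 to 0.751. Adjusted over the 5 pairs, none of these was under 0.55. Whether lrp8, selenop2 and trnau1apa were read above background is not known, which limits what their pairs can show.

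The measured genes of the wider pathway gave no call either. Of 18 genes listed for selenocysteine synthesis and recoding, 1 is sephs3 under its older name and 7 others had a probe set. For the listed genes secisbp2, secisbp2l, eefsec, pstk, scly, sars1 and alkbh8, no probe set annotated to that gene alone was found. The name secisbp2 was not matched to any gene number. The 135 probe sets with several symbols and the 4572 with none were not searched. Nothing is known here of the RNA of the listed genes without a probe set. Of these 7, 2 were higher and 5 lower in females, with a median log2 difference of -0.03, and 2 were higher and 5 lower in males, with a median of -0.10. In each sex 0 of the 7 passed the test. At an unadjusted limma p under 0.05, 0 of 7 passed in females and 1 of 7 in males. Among all probe sets 8.27% and 5.23% did. The RNA-binding protein genes elavl1a and elavl1b had the smallest p: elavl1a stood at 0.34 ± 0.20 (SE) in females and -0.27 ± 0.18 in males, and elavl1b at -0.04 and -0.25 ± 0.11. The tRNA-modifying gene trit1 stood at -0.19 ± 0.16 in females, and ncl, the nucleolin gene, at -0.10 ± 0.07 in males.

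Of 23 listed receptors of the LDL receptor family, their ligands and Reelin partners, 9 were measured. Of these 6 were higher and 3 lower in females and 5 higher and 4 lower in males, with medians of 0.03 and 0.07. Again 0 passed. The receptor-associated chaperone gene lrpap1 stood at -0.19 ± 0.12 (SE) in females and the Reelin gene reln at -0.10 ± 0.09 in females and 0.10 ± 0.09 in males. Another Reelin receptor gene, vldlr, stood at 0.15 ± 0.13 in males. Between the sexes apoeb, an apolipoprotein E gene, was -0.44 ± 0.19 in females against males (limma adjusted p = 0.302).

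Of 28 listed genes that reduce selenite or handle its sulfur relatives, 16 were measured. Of these 9 were higher and 7 lower in females and 8 higher and 8 lower in males, with medians of 0.01 and 0.02. In either sex 0 passed. At an unadjusted limma p under 0.05, 1 of 16 passed in females and 3 of 16 in males. Among all probe sets 8.27% and 5.23% did. The glutathione reductase gene gsr stood at 0.47 ± 0.21 (SE) in males, with levels of 8.74 ± 0.05 on selenium and 8.27 ± 0.25 in controls (SD, n = 4 each) and a limma adjusted p of 0.937. The glutaredoxin gene glrx stood at -0.30 ± 0.13 in females and glrx5, which serves iron-sulfur clusters, at 0.24 ± 0.09 in males. The glycine methyltransferase gene gnmt stood at 0.22 ± 0.14 in females and -0.29 ± 0.13 in males, a difference between the sexes of 0.51 ± 0.19 (limma adjusted p = 0.559). In males the muscle and retina signal also stood higher on selenium, with list means of 7.78 ± 1.53 and 6.50 ± 1.80 (SD, n = 4) against 6.19 ± 0.19 and 4.91 ± 0.46 in controls. Of the genes in these lists, 17 of 17 muscle genes and 11 of 12 retina and lens genes were higher in these males, with 0 called. In females the muscle mean was 6.59 ± 0.18 (n = 4) on selenium and 5.96 ± 0.21 (n = 3) in controls, without overlap, with 15 of 17 genes higher and 0 called. The retina mean was 5.16 ± 0.66 and 5.27 ± 0.99 in the same groups. The part of these signals in the values of the pathway genes was not tested.

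**Figure D5:**
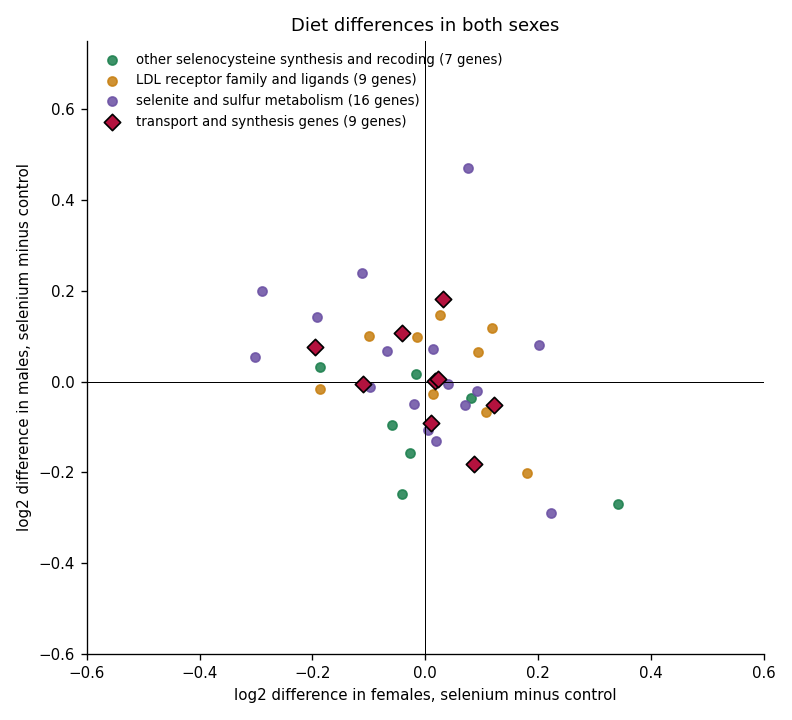
Log2 difference between the selenium and the control diet in females (x axis) against males (y axis) for the 9 transport and synthesis genes (diamonds) and for 3 lists of further pathway genes (circles). The 9 genes stay within 0.20 of 0 in both sexes, and the farthest circles are gsr at 0.47 in males and elavl1a at 0.34 in females.

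For each member the 2 genes with the highest Pearson r were taken from 8787 searched. For trnau1apb these were septin7a and srp68, with r of 0.94 each over the 15 fish (0.96 and 0.93 with the group means subtracted). For sephs1 they were taf15 and phf3 (r = 0.89 and 0.85), for sephs3 csnk2a2b and ntn1a (0.85 and 0.83), and for sepsecs fem1c and the retinal homeobox gene rx1 (0.87 and 0.85). For selenop they were tomm7 and mhc2daa (0.81 and 0.76), for selenop2 or42c3 and si:dkey-238d18.10 (0.80 and 0.79), and for lrp8 hif1an and slc7a6os (0.83 and 0.80). For selenbp1 they were aldh8a1 and gsto2 (0.80 and 0.78), and for trnau1apa fgfrl1a and dguok (0.79 and 0.78). Spearman's rho was lower than r for several of these: 0.45 for fgfrl1a, 0.61 for si:dkey-238d18.10, 0.64 for dguok, 0.69 for rx1 and 0.71 for fem1c, against 0.93 and 0.94 for septin7a and srp68. These are the highest of many correlations and only describe likeness across these fish. How many of the arrays were normalised together is not known.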

How the data were processed

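The authors deposited log2 expression values per probe set, made with RMA and affy per the submitters' processing notes. RMA corrects background, gives all arrays 1 distribution and summarises probes. The sources used here give neither versions nor how many arrays were normalised together. The table held 15617 probe sets, and 115 controls were left out. The values were used unchanged and unfiltered. Array medians lay between 7.22 and 7.33. RMA can compress differences of dim probe sets.

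With limma 3.58.1 (R 4.3.3), 4 group means were estimated from the 15 arrays, and tests were two-sided with Benjamini-Hochberg adjustment over all 15502 probe sets. The fit and the correlation test were tested on simulated data. Labels give no batch and no pairing, and nothing says whether tanks were shared. Replicates were numbered in accession order.

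The members and lists were chosen with earlier results of these data known. The text may name all members, list genes past the threshold or among the 4 smallest p of a comparison, and the 2 genes most like each member. Some listed genes for which no probe set was found are named too. Beyond both diet effects, single values are given where the unadjusted p was under 0.2. Pairs of probe sets of 1 gene, and the fit without the 2 males of highest retina signal, were added after seeing the data. Other alternatives were scaling, weights, filters, covariates and fish left out. No coordinates are given, because the probes have no stated build.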

Additional observations from a re-analysis of the deposited data

Results flagged for a closer look

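Of 33 groups of 4 fish examined, 1 held a fish far from the rest: in males on selenium, trnau1apa of replicate 2 stood at 4.57, while the other 3 stood between 4.86 and 4.91. The gap was 0.854 of the whole range, above Dixon's 95% critical value for 4 values. Chance alone marks about 1 in 20 such groups. The same fish had the most retina signal and the lowest 3′ minus 5′ difference of gapdh, and their part in the value was not tested. The 3 control females were too few for this check.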

How the results depend on the processing

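Under every alternative run, 0 of the member probe sets were called in any of the 5 comparisons (121 counts). Of 28 log2 differences of members in the text, 12 kept their sign in every alternative and 16 turned at least once, in 55 of 665 recomputed values. None of these passed the threshold, and no turned value exceeded 0.22. With arrays centred on their medians the log2 difference was 0.019 for selenop in females, -0.018 for sephs3 (brighter) in males and -0.013 for trnau1apa in males. After a further quantile normalisation it was -0.038 for selenop2 and -0.021 for trnau1apa in females. With array weights it was -0.016 for trnau1apa in females, and 0.016 for sephs1 and -0.0024 for sephs3 (brighter) in males. With the gapdh difference as a covariate it was 0.042 for selenop, -0.077 for trnau1apb (brighter) and 0.22 for its dimmer probe set in females, 0.027 for sephs1 and -0.023 for trnau1apa in males, and -0.022 for trnau1apb (brighter) between the sexes. With muscle and retina means as covariates it was -0.0043 for sephs3 (brighter) and 0.029 for trnau1apb (dimmer) in females, and 0.028 for lrp8, 0.0097 for sephs1 and -0.039 for sephs3 (brighter) in males. By the mean of a gene's probe sets trnau1apb stood at -0.035 in females, -0.0027 for the difference of the diet effects and -0.12 between the sexes, and sephs3 at -0.0073 in males. Without replicates 2 and 4 of the males on selenium, chosen after seeing the data, the male difference was -0.11 for selenbp1, 0.084 for sephs1 and -0.045 for trnau1apb (dimmer). The cause of these turns was not tested.

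With 1 fish left out at a time, the female difference ran from -0.14 to 0.033 for selenop, -0.097 to 0.12 for selenop2, -0.0056 to 0.051 for sephs3 (brighter), -0.028 to 0.071 for sepsecs, -0.16 to 0.18 for trnau1apa and -0.34 to 0.037 for trnau1apb (dimmer). The male difference ran from -0.017 to 0.18 for selenbp1, -0.045 to 0.038 for sephs1, -0.026 to 0.025 and -0.090 to 0.057 for the brighter and dimmer probe sets of sephs3, -0.060 to 0.084 for trnau1apa and -0.018 to 0.28 for trnau1apb (dimmer). Without a turn of sign, the female difference ran from 0.038 to 0.16 for lrp8, -0.24 to -0.13 for selenbp1, -0.20 to -0.0097 for sephs1, 0.097 to 0.23 for sephs3 (dimmer) and 0.016 to 0.16 for trnau1apb (brighter). The male difference ran from 0.040 to 0.20 for selenop, -0.13 to -0.058 for selenop2, -0.097 to -0.0070 for lrp8, 0.11 to 0.23 for sepsecs and -0.26 to -0.11 for trnau1apb (brighter). The correlation ran from -0.133 to 0.285 for sephs1 with sephs3 and from -0.564 to 0.00056 for trnau1apa with trnau1apb.

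Over all probe sets, the 22 sex calls became 42 with a trended and robust prior, 57 with array weights, 94 among probe sets above the median level, 5 with the gapdh covariate and 3 without males 2 and 4 on selenium. They ran from 2 to 64 with 1 fish left out. With the muscle and retina covariates limma called 0 for sex. Without males 2 and 4 on selenium, 15 probe sets passed for the male diet effect and 11 for the diet effect averaged over the sexes. For the difference of the diet effect between the sexes 2 passed, and in these 3 comparisons 0 were a member. The restriction to probe sets above the median level gave no value for members below it. No paired analysis was possible because the labels give no replicate numbers shared by the groups. The 3 to 4 fish of a group, and unknown background signal for the dim probe sets, limit what could be detected.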

Other observations

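Markers of other cell types were read beside these genes, as the mean log2 level of each list in each fish. The neuron list (8 genes measured) lay between 12.2 and 12.3 and radial glia (9) between 11.2 and 11.5, lowest in the males on selenium (11.21 ± 0.03, SD, n = 4, against 11.33 ± 0.04 in control males, without overlap). Oligodendrocytes (5) lay between 9.79 and 10.2, microglia (8) between 7.56 and 9.11, endothelium (4) at or below 7.91, and erythrocytes (6) between 9.18 and 10.4. Liver and plasma proteins (10), the site where most selenoprotein P is made in mammals, lay between 5.43 and 5.95. Choroid plexus and ependyma (2) lay between 7.55 and 8.42 and meninges (6) between 8.31 and 9.56. Skeletal muscle (17) ran from 5.72 to 9.90, the latter in replicate 1 of the males on selenium, and retina and lens (12) from 4.62 to 8.42. In that replicate 1 selenop stood at 11.05 and sephs3 at 11.20, the highest sephs3 value of all 15 fish. All fish lay within 0.215 log2 units for that probe set, and the part of muscle in its values was not tested.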
